A study of Mus musculus with 29 samples.

Results

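The 10 genes Bin1, Picalm, Sorl1, Cd33, Inpp5d, Plcg2, Ptk2b, Abi3, Abca1 and Abca7 are mouse counterparts of Alzheimer disease risk genes that microglia, the resident macrophages of the brain, express. They are 10 of 21911 protein-coding genes of GENCODE vM21 on mouse genome build GRCm38 (mm10), and they were taken by gene name. For each gene, every listed peak that overlapped the gene body extended by 20 kb on each side (its window) was collected from 25 deposited peak lists, and a region with the same chromosome, start and end was counted once per library. This gave 1521 distinct regions of the 1008854 listed over all libraries. The assay was CUT&RUN, in which an antibody tethers a nuclease to its target on chromatin and the fragments cut free are sequenced. IRF8 was profiled through its EGFP tag with an anti-GFP antibody in cells of female IRF8-EGFP mice: sorted microglia at postnatal day 9 (P9, 4 libraries), at day 14 (P14, 3 libraries) and in adults of 3 months (3 libraries), and peritoneal macrophages (3 libraries). PU.1, H3K27ac and H3K4me1 were profiled in microglia of female wild-type (WT) adults and of adults lacking IRF8 (labelled IRF8KO, here KO), which carry no EGFP fusion by their labels, with 2 libraries for each target and genotype. The sources used here do not say whether the knockout was germline or conditional, whether animals were pooled, or whether libraries came from separate animals, so p-values measure only the spread between these libraries.

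IRF8 and PU.1 (encoded by Spi1) are transcription factors of the myeloid lineage. IRF8 binds DNA weakly alone and joins PU.1 on composite sites where an ETS core (GGAA) is followed by an IRF core (GAAA). H3K4me1 marks enhancers, poised or active, and H3K27ac marks active enhancers and promoters. Bin1 (membrane curvature), Picalm (clathrin assembly) and Sorl1 (a sorting receptor) serve endocytosis and endosomal sorting. Cd33 is an inhibitory sialic acid receptor. Inpp5d encodes the lipid phosphatase SHIP1, Plcg2 a phospholipase, Ptk2b the tyrosine kinase PYK2 and Abi3 an actin regulator, all of which act downstream of immune receptors or adhesion. Abca1 exports cholesterol and phospholipid to apolipoproteins, and Abca7 is a related lipid transporter.

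The DNA under the regions that the results turn on is shown here as the central 200 bases of each region, forward strand of GRCm38 (RefSeq), 5′ to 3′. Capitals mark matches on either strand to the composite motif, GGAA followed after any 2 bases by GAAA, or to the ETS motif GGAAGT. The motifs overlap where the spacer begins with GT, as at Abca7. The Cd33 region lies between genes upstream of Cd33 at chr7:43553429-43553628 and was listed in 23 of 25 libraries, and the Cd33 PU.1 region lies just upstream of the Cd33 start at chr7:43544703-43544902. The Abca7 window sequence lies in an intron of the neighbour Arhgap45 at chr10:80024265-80024464. Inpp5d PU.1, in an intron at chr1:87648932-87649131, is the centre of a PU.1 region that no KO library listed. Inpp5d IRF8, also intronic, at chr1:87650790-87650989, is the centre of the IRF8 region that holds that PU.1 region. The Inpp5d IRF8 sequence itself lies outside that PU.1 region, in a neighbouring one that every PU.1 library listed. Sorl1 at chr9:42141552-42141751 and Abi3 at chr11:95858516-95858715 are intergenic PU.1 regions that only KO libraries listed. Cd33 PU.1 and Inpp5d IRF8 were picked for display after their values were seen.
Cd33: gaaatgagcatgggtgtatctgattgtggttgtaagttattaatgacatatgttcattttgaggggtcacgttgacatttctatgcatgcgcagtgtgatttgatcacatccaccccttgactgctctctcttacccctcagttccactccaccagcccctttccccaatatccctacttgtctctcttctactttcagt
Cd33 PU.1: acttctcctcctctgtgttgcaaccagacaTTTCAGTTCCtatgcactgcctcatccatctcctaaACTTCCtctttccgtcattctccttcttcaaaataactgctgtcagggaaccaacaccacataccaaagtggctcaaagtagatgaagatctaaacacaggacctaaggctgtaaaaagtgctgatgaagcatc
Abca7: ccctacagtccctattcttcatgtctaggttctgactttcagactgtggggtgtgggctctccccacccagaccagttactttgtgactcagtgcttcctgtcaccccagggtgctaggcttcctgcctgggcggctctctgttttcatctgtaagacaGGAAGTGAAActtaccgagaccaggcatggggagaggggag
Inpp5d PU.1: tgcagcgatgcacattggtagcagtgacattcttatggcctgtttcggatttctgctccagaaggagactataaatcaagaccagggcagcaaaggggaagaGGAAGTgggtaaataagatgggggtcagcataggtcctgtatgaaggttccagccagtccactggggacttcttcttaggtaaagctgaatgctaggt
Inpp5d IRF8: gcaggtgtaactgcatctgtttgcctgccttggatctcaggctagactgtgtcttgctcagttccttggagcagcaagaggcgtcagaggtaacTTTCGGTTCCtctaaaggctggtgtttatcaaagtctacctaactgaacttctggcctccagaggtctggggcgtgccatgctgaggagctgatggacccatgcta
Sorl1: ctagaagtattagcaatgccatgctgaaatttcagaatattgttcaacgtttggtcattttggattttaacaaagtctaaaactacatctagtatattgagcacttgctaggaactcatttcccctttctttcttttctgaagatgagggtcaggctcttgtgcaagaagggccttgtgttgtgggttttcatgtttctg
Abi3: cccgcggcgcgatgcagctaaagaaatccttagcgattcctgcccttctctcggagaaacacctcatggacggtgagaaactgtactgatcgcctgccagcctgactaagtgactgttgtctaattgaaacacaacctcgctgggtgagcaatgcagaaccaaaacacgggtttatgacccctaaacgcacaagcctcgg
In the Abca7 sequence the composite match is GGAAGTGAAA on the forward strand. In Cd33 PU.1 it is GGAACTGAAA and in Inpp5d IRF8 it is GGAACCGAAA, both on the reverse strand. Inpp5d PU.1 holds GGAAGT on the forward strand, 2 bases from the centre. The Cd33, Sorl1 and Abi3 sequences hold neither motif in this window.

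Across the series, libraries held 7.25 to 24.7 M (mega) fragments. The IRF8 lists grew from 1168 to 2068 distinct regions at P9 to 7931 to 19243 at P14 and 17048 to 29667 in adults, and the macrophage lists held 9788 to 23163. Each stage and tissue had its own control library, so stage cannot be told apart from control. The shallowest KO library was H3K27ac replicate 2, with 8.57 M fragments and 31524 regions beside 88400 in replicate 1. Of 7 microglial marker genes, 6 had a WT H3K27ac consensus region (overlapping peaks of 2 or more libraries of the group, merged) within 1 kb of a start; Tmem119 did not. Of the marker genes of other cells, 0 of 6 neuronal, 2 of 5 astrocyte (Slc1a3 and Gja1), 1 of 6 oligodendrocyte (Mog), 1 of 3 endothelial (Pecam1) and 0 of 3 lymphocyte genes had one. The KO lists had such a region at 3 of the 7 microglial genes and at 0 of the other cells' genes. In macrophages an IRF8 consensus region lay at Gata6 and Icam2, 2 of 5 peritoneal macrophage markers, and at 3 of the 7 microglial genes. No expression was measured, so the knockout itself was not checked.

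The stage comparison asked where IRF8 sits at these genes as microglia mature. Few regions were listed at P9, and all 10 genes had an IRF8 consensus region in adults. The 10 windows together held 3 consensus regions at P9, 34 at P14 and 52 in adults. They were found at 2 genes at P9 (Cd33 and Inpp5d), at 9 at P14 (all but Sorl1) and at 10 in adults. Among all gene windows, 7.00% held one at P9, 32.0% at P14 and 50.6% in adults. The windows of the 10 genes are long, with a median of 132 kb beside 57.4 kb for all genes. Of 25 other Alzheimer risk genes, 7 held a consensus region at P9, 19 at P14 and 19 in adults.

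Among the endocytic genes, the Bin1 window held 1, 0, 2 and 0 distinct IRF8 regions in the 4 P9 libraries, 5, 9 and 3 at P14, and 7, 12 and 6 in adults. Picalm, the clathrin assembly gene, had 0, 0, 1 and 0, then 1, 5 and 2, then 4, 13 and 6. Sorl1 had 0 in each P9 library, then 0, 2 and 0, then 2 in each adult library. For Bin1 every P14 library lay above every P9 library, while P14 and adult libraries overlapped. The Sorl1 window, at 200 kb, was the longest of the 10, and its 2 regions per adult library were matched by Plcg2 in adult replicates 1 and 3.

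Among the receptor and signalling genes, Cd33 had regions in every microglial library: 1, 1, 2 and 2 at P9, 4, 5 and 5 at P14, and 6 in each adult library. Its 3 stages did not overlap in these counts, which are not scaled to list length, and the adult libraries did not differ from each other. Genes outside the 10, such as Aatk and Acer3, also had stages that did not overlap. How many of all genes separate in this way, or as Bin1 and Inpp5d do, was not counted. Inpp5d, the SHIP1 gene, had 1, 0, 3 and 1 regions at P9, 8, 11 and 8 at P14, and 10, 9 and 10 in adults. P14 and adult libraries overlapped at Inpp5d, and all lay above P9. Plcg2 had 0 at P9, 1, 5 and 1 at P14, and 2, 7 and 2 in adults. Ptk2b, the PYK2 gene, had 0, 0, 0 and 1 regions at P9, 6, 11 and 4 at P14, and 11, 18 and 7 in adults. Its adult mean of 12 was the highest of the 10 genes, although in adult replicate 3 Inpp5d had 10 regions beside 7 at Ptk2b. Abi3 had 0 at P9, 1, 3 and 1 at P14, and 3, 8 and 5 in adults.

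The lipid transporters had 0 regions in every P9 library. Abca1 had 5, 9 and 1 at P14 and 8, 10 and 7 in adults. Abca7 had 3, 4 and 3 at P14 and 6, 8 and 4 in adults, in a window that also holds Grin3b, Tmem259, Cnn2 and Arhgap45. The libraries with most regions at these genes, P14 replicate 2 and adult replicate 2, were also those with the longest lists in their groups.

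**Figure D1:**
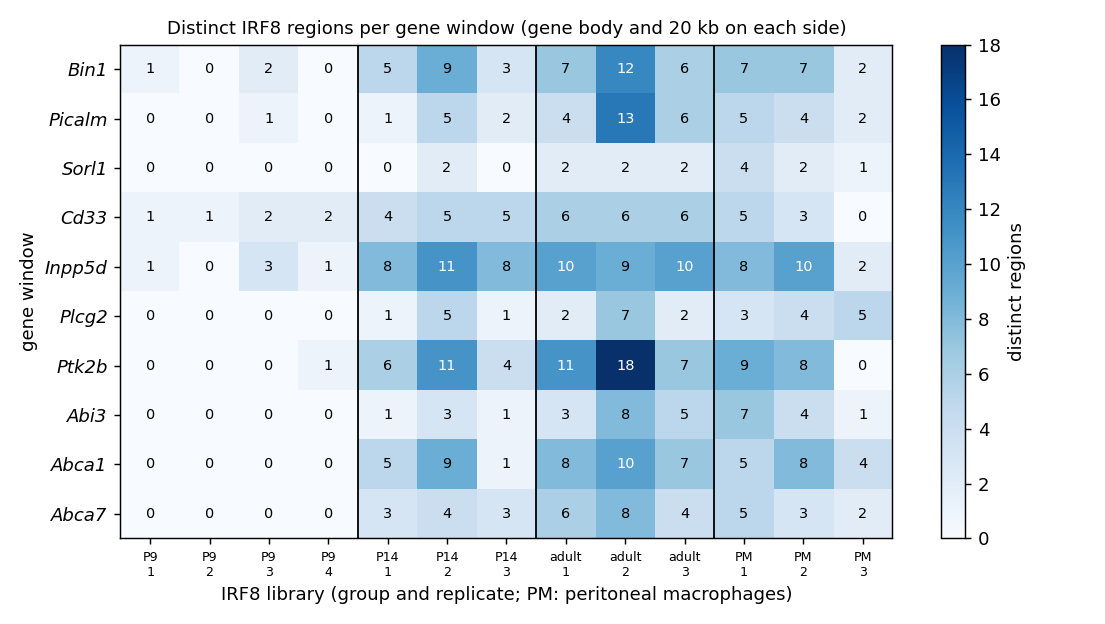
Distinct IRF8 regions in each gene window (rows) for each of the 13 IRF8 libraries (columns, by group and replicate), with the number printed in each cell and shaded from 0 to 18. The P9 columns hold 0 to 3 regions per gene, and Ptk2b in adult replicate 2 has the highest number, 18.

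An exact permutation test of a Jonckheere-Terpstra trend over P9, P14 and adult (two-sided, 4200 assignments, Benjamini-Hochberg over 16449 genes) called 10 of the 10 genes higher at later stages. It called 46.0% of all tested genes higher and 0.00% lower, and 17 of 24 other Alzheimer risk genes higher. On counts not scaled to list length, the trend statistic was 33 of a possible 33 at Cd33 (exact permutation, adjusted p = 0.015). It was 27.5 at Sorl1 (exact permutation, adjusted p = 0.0424) and between 30 and 32.5 at the others. The result moved with the threshold, the window and the length of the lists. With regions at −log10 p of at least 10, 5 of the 10 were called, beside 16.8% of all genes, and with gene bodies not extended 5, beside 18.3%. With lists of equal length 6 of the genes could be tested and 0 were called by this test (0 at an unadjusted p under 0.05), beside 0 of all genes. With regions counted per 10000 listed, 1 of the 10 was called higher, beside 0.45% of all genes. In this test 4 had an unadjusted p under 0.05, counted in either direction. Cd33 fell on that scale, with 7.32 to 16 regions per 10000 at P9, 2.6 to 6.3 at P14 and 2.02 to 3.52 in adults. Its P9 libraries all lay above its later ones. Sorl1, Plcg2, Abi3, Abca1 and Abca7 still had 0 at P9 and regions in every adult library. On that scale the 10 windows together held 22, 8.56, 38.7 and 32 regions per 10000 at P9, 42.7, 33.3 and 35.3 at P14, and 34.6, 31.3 and 24.5 in adults, and these ranges overlapped. With any 1 P9 library or adult replicate 2 left out, 6 of the 10 were called, beside 9.73 to 12.2% of all genes.

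The adult IRF8 region of highest mean percentile (its rank by −log10 p within each adult list) at each gene is described next, with the fold enrichment over the control that the authors deposited for the strongest peak there. These folds rest on different controls and are not compared between groups. The Cd33 region, chr7:43551815-43555244, is centred 9.1 kb upstream of the Cd33 start between Cd33 and Zfp658. The start nearest to it is that of Zfp658, and 2 of the 4 adult regions of the Cd33 window lay in Cd33 or nearest to it. Its folds were 46.2, 36.2 and 27 in adults, and its percentile was 99.9 in each adult list. At P9 they were 12.1, 16.6, 13.4 and 13.1 and at P14 11.6, 14.4 and 11.7. It was the only one of these 10 regions listed in every P9 library. In macrophages it was listed in 1 of 3 libraries, at 4.32.

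At Inpp5d the strongest region, chr1:87619663-87622359, covers the start, with adult folds of 21.8, 18.1 and 9.97. It was listed in 2 of 4 P9 libraries, at 8.69 and 5.63, and in all 3 at P14, at 7.08, 14.5 and 6.44. The Picalm region also covers the start, chr7:90128500-90130372, with adult folds of 10.9, 12 and 8.96, and 1 P9 library listed it at 3.8. At Bin1 the strongest region was intronic, chr18:32406937-32408288, 30.4 kb from the start, with adult folds of 13.5, 15.2 and 13.7. It was listed in 1 P9 library, at 4.01, and in all 3 P14 libraries, at 17.1, 14.1 and 9.66. The strongest IRF8 site thus covered the start at Inpp5d and Picalm and lay elsewhere at the other 8 genes.

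At Ptk2b the region overlapped an exon, chr14:66188270-66190905, 91.5 kb into the gene, with adult folds of 21.2, 17.7 and 6.89. It was listed in 1 of 4 P9 libraries, at 4.93. Abi3 had an intronic region, chr11:95834160-95836092, at 11.4, 10 and 8.79 in adults, listed in 0 P9 and 3 P14 libraries. At Plcg2 the region lay 16.3 kb upstream, chr8:117481444-117482518, at 10.4, 11 and 6.45 in adults and 16.6, 11.6 and 7.62 in macrophages. Its percentile was 97.9 to 99.1 in the macrophage lists and 73.1 to 88.3 in the adult lists.

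The Abca1 region was intronic, chr4:53116066-53117443, 43.1 kb from the start, at 11.9, 19.1 and 6.45 in adults, and it was listed in all 3 P14 and in 0 of 3 macrophage libraries. At Abca7 the region of the sequence shown above, chr10:80023630-80025101, was enriched 9.86, 9.6 and 9.08-fold in adults and listed in 3 P14 and 2 macrophage libraries. It lies inside Arhgap45, and 0 of the 6 adult regions of the Abca7 window lay in Abca7 itself or nearest to it. The Sorl1 region, chr9:42141471-42142044, 17.5 kb upstream, was listed in 2 adult libraries, at 10.4 and 8.07, and not in adult replicate 3.

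**Figure D2:**
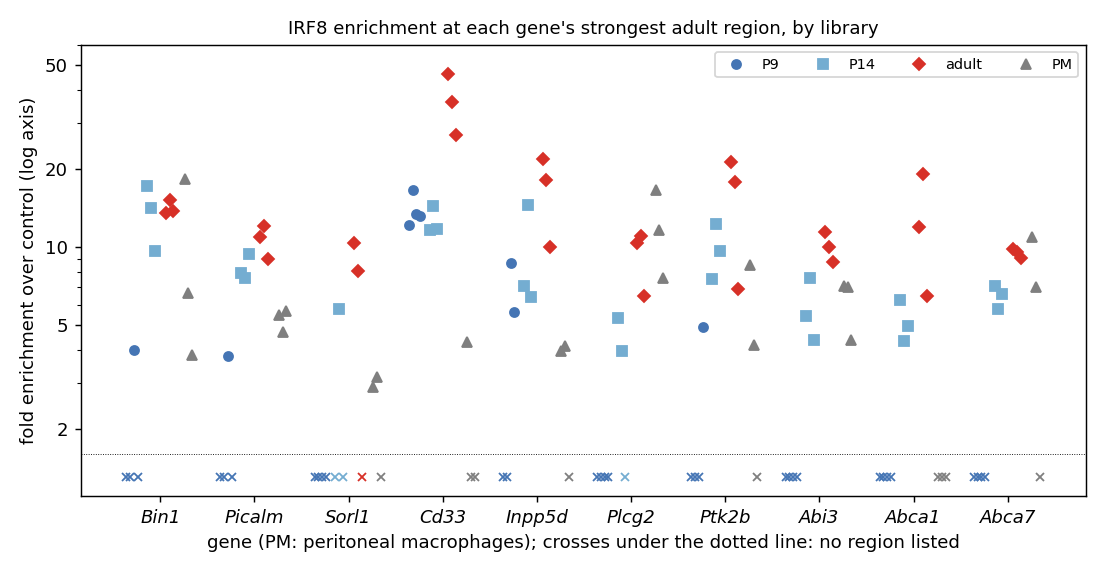
Fold enrichment over control (log axis, the authors' values) at the strongest adult IRF8 region of each gene, 1 point per library, coloured by group; crosses under the dotted line mark libraries that did not list the region. Cd33 has points in all 4 P9 libraries and reaches 46.2 in adults, and Abca1 has no macrophage point. Controls differ between groups, so heights are read within a group.

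Adult microglia were next set beside peritoneal macrophages. Macrophage libraries listed 40 consensus regions at the 10 genes, with at least 2 at each, beside 39.9% of all gene windows with one. Cd33 had 5, 3 and 0 regions in macrophage libraries beside 6 in each adult library. It was the only one of the 10 genes whose adult libraries all lay above the macrophage libraries, which held for 9.09% of 17479 gene windows; the reverse held for 0 of the 10 and 1.45% of windows. With 3 libraries against 3 the smallest exact two-sided p is 0.1. Within batch 1, which holds 2 libraries of each cell type, the Cd33 means were 6 and 4.

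At the other genes the libraries overlapped. Ptk2b had 9, 8 and 0 macrophage regions and Inpp5d 8, 10 and 2, with batch 1 means of 14.5 in adults and 8.5 in macrophages at Ptk2b and 9.5 and 9 at Inpp5d. Plcg2 had 3, 4 and 5, Abca1 5, 8 and 4, and Bin1 7, 7 and 2. Picalm had 5, 4 and 2, Abi3 7, 4 and 1, Abca7 5, 3 and 2, and Sorl1 4, 2 and 1. Macrophage replicate 3, of batch 2, was lowest at all of these but Plcg2 and has the shortest macrophage list. Of the 52 adult regions, 31 (59.6%) overlapped a macrophage consensus region, beside 39.5% of all adult regions.

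The 52 adult regions lay mostly away from starts. By their centres, 31 were in introns, 1 in an exon, 9 between genes and 11 (21.2%) within 1 kb of a start, beside 26.2% of all adult regions. Of those 11, 7 were at starts of the 10 genes (2 at Cd33, which has 3 annotated starts, and 1 at Abi3 that lies closer still to a start of Gngt2) and 4 at starts of neighbours alone. All 7 at Abca1 were intronic, as were 6 of 7 at Inpp5d and 8 of 10 at Ptk2b. By stage, 3 (5.77%) overlapped a P9 consensus region, beside 7.76% of all adult regions, and 30 (57.7%) a P14 region, beside 43.2%. Cd33 and Inpp5d held the 3 P9 regions.

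WT PU.1 consensus regions overlapped 20 of the 52 (38.5%; 27% of all adult regions). Bin1 and Inpp5d had 5 each, Cd33 3, and Sorl1 and Abca7 had 0. KO PU.1 regions overlapped 23 (44.2%; 20.8% of all), 18 of them sites with WT PU.1 as well. Active chromatin was common: 46 of 52 (88.5%; 81.8% of all) overlapped WT H3K27ac. All 52 overlapped H3K4me1 in WT (91.3% of all) and in KO (86.3% of all), and 23 overlapped KO H3K27ac (44.2%; 28.3% of all). The 6 without H3K27ac were at Ptk2b and Abca7 (2 each), Bin1 and Abi3 (1 each). The composite motif lay in the central 200 bases, on either strand, of 2 of the 52 (3.85%), those at Abca7 and Inpp5d shown above, beside 6.25% of all adult regions. A repeat of GAAA with a spacer of 2 bases, of the interferon-response type, lay in 3 (5.77%; 4.19% of all), at Cd33, Inpp5d and Abi3, and GGAAGT in 14 (26.9%; 26.3% of all), of which 5 were at Bin1. Of the 24 WT PU.1 regions, 2 held the composite motif (8.33%; 7.76% of all WT PU.1 regions), at Cd33 and Plcg2, and 10 held GGAAGT (41.7%; 39.9%).

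The genotype comparison asked which of these regions remain listed without IRF8. A WT consensus region is called lost here when neither KO library listed an overlapping peak, and KO-only means the converse. With 2 libraries against 2 the smallest exact two-sided p is 0.333, so no test was made. WT PU.1 consensus regions were present at 9 of the 10 genes (22.4% of all gene windows) and KO PU.1 regions at 10 (20.9%). Most WT PU.1 regions were still listed in at least 1 KO library: 2 of 24 WT regions at the 10 genes were lost (8.33%), beside 25.1% of all WT PU.1 regions, and 2 of 27 KO regions were KO-only (7.41%), beside 16.5%. Lost PU.1 regions depended on single libraries and on the rule. Without WT replicate 1 they were 7 of 32 (47.7% of all), without WT replicate 2 18 of 50 (58.6%) and without KO replicate 2 6 of 24 (35.6%). By absence from the KO consensus they were 6 of 24 (25%), beside 48% of all. KO-only PU.1 regions were 8 of 39 without KO replicate 1 (58.2% of all) and 10 of 38 without KO replicate 2 (47.3%), and 6 and 4 of 27 without WT replicates 1 and 2 (31% and 24.3%). At −log10 p of at least 10 they were 3 of 13 (23.1%), above the 19.6% of all. They were 5 of 27 with an overlap of at least 50% of the region required (32.5% of all), 8 of 27 by absence from the WT consensus (39.1%) and 0 of 16 in gene bodies with no extension (16.5%). At 25 other Alzheimer risk genes 3 of 29 were lost and 3 of 24 were KO-only. Of the 24 regions, 17 were listed in both KO libraries, 1 only in replicate 1 and 4 only in replicate 2.

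Of the 21 WT regions that overlapped adult IRF8, 1 was lost (23.2% of all such regions), and of the other 3, 1 (38.3%). The lost regions were both intronic. At Bin1, chr18:32398348-32398712 was enriched 6.05 and 6.21-fold in the WT libraries and overlapped no adult IRF8 consensus region. The other 5 PU.1 regions of Bin1 were listed in at least 1 KO library, among them the one under its strongest IRF8 region (WT 15.8 and 9.66, KO 10.2 and 14.2). At Inpp5d, chr1:87648737-87649328, 28.7 kb from the start, was enriched 9.58 and 7.59-fold in WT; its sequence is Inpp5d PU.1 above, with the GGAAGT match near its centre. At the same place H3K27ac was listed in both WT libraries (8.82 and 9.81) and in neither KO library, and H3K4me1 in all 4. The wider H3K27ac region there does not count as lost, since a KO peak overlaps it elsewhere, and 0 of the 5 WT H3K27ac regions of Inpp5d that overlapped adult IRF8 were lost.

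The lost Inpp5d region lies inside an adult IRF8 region of 4778 bp, chr1:87648502-87653279. A neighbouring PU.1 region under the same IRF8 region, chr1:87650591-87653281, was listed in all 4 libraries, at 14.9 and 11.1 in WT and 13 and 8.06 in KO. This neighbouring region, and not the lost one, holds the Inpp5d IRF8 sequence with its composite match GGAACCGAAA. The Inpp5d start kept PU.1 as well, at 9.08 and 10 in WT and 11.3 and 9.56 in KO. So 5 of the 6 WT PU.1 regions of Inpp5d remained listed.

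Cd33 kept all 3 of its PU.1 regions. The one beside its start, whose sequence holds GGAACTGAAA, was enriched 22.2 and 9.66-fold in WT and 22.3 and 10.2-fold in KO. The upstream one was at 37.3 and 13.2 in WT and 13.2 and 5.19 in KO. Replicate 2 of PU.1 used another control and a looser threshold in both genotypes, and folds are not compared between lists. Picalm, Abca1, Plcg2, Ptk2b, Abi3 and Sorl1 also kept every WT PU.1 region in at least 1 KO library, and Abca7 had none in WT.

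The KO-only PU.1 regions lay far upstream of Sorl1 and of Abi3. At Sorl1, chr9:42141199-42142106, 17.4 kb upstream, was enriched 10.2 and 7.65-fold in KO and was listed in 0 of 2 WT libraries. At Abi3, chr11:95858191-95859042, 16.1 kb upstream and nearest to Gngt2, was at 3.66 and 3.83. Both overlapped an adult IRF8 consensus region, as did 25 of the 27 KO PU.1 regions (2 of 25 KO-only, beside 8.30% of all such regions, and 0 of the other 2, beside 46.1%). At Sorl1 it was the only adult IRF8 region of the gene. Neither central sequence held the searched motifs.

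**Figure D3:**
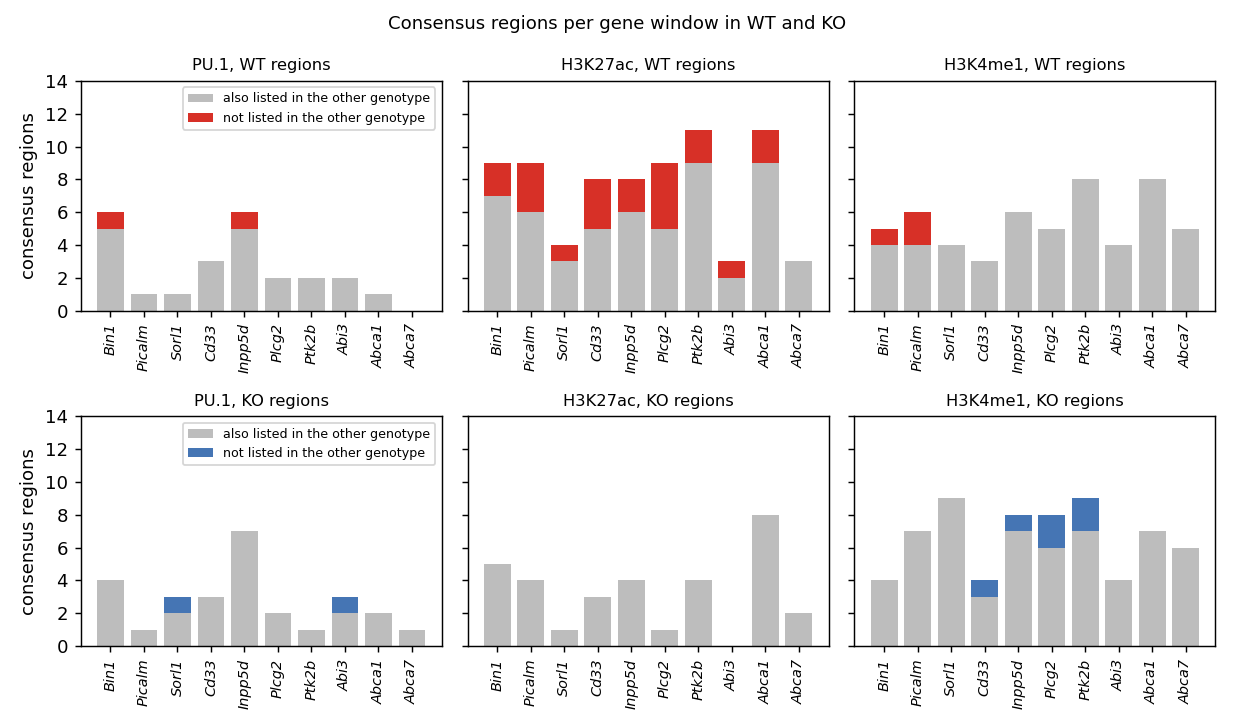
Consensus regions in each gene window for PU.1, H3K27ac and H3K4me1, in WT (top) and KO (bottom); coloured parts are regions that neither library of the other genotype listed. Red parts stand at 9 of 10 genes for WT H3K27ac (20 of 75 regions) and at 2 genes for WT PU.1, and KO H3K27ac has no coloured part.

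H3K27ac was the mark with most lost regions. WT consensus regions lay at all 10 genes (61.7% of all gene windows) and KO regions at 9, all but Abi3 (30.1%). Of 75 WT consensus regions at the 10 genes, 20 were lost (26.7%), beside 34.0% of all WT H3K27ac regions. Of 32 KO regions 0 were KO-only, beside 10.9%; these were 0 of 22 with adult IRF8 (0.190% of all such regions) and 0 of 10 without (19.7%). At the 25 other risk genes 33 of 131 were lost. Of the 75, 28 were listed in both KO libraries, 22 only in KO replicate 1 and 5 only in the shallow KO replicate 2. The lost regions ranked lower and were shorter in WT than the shared ones, with a median mean percentile of 53.5 beside 78.3 and a median length of 1220 bp beside 2652 bp. Of the 20, 12 were intronic, 4 intergenic, 3 at starts and 1 exonic. Of the genes of other cells with a WT consensus region at a start, Gja1 and Pecam1 had a peak there in KO replicate 1, Slc1a3 in KO replicate 2 and Mog in neither. The part of rank, KO depth and other cells in the loss was not tested. With KO replicate 1 alone 25 regions were absent (37.3% of all WT H3K27ac regions), and with KO replicate 2 alone 42 (72.9%). Without WT replicate 1, 74 of 143 were lost (59.5% of all), and without WT replicate 2, 57 of 129 (54.5%). With an overlap of at least 50% of the region required, 57 of 75 were lost (76%), above the 71.2% of all, where the share under the main rule lay below it. By absence from the KO consensus 50 were lost (66.7%, beside 78.4%), and with lists of equal length 6 of 36 (16.7%, beside 35.4%). KO-only regions were 14 of 63 without KO replicate 1 (55.5% of all KO H3K27ac regions) and 45 of 137 without KO replicate 2 (55.9%). At −log10 p of at least 10 they were 1 of 9 (11.1%), above the 8.03% of all.

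By overlap with IRF8, 3 of 40 WT H3K27ac regions that overlapped an adult IRF8 consensus region were lost, and 17 of 35 others. Over all WT H3K27ac regions the shares were 21.0% and 41.2%. The difference was not tested. The split was made under the 1 bp overlap rule alone, and length and rank were not compared between the sets with and without IRF8. The 3 lost IRF8-bound regions were 2 at Plcg2 and 1 at Picalm. The Picalm one, chr7:90201877-90203938 in an intron, was enriched 3.7 and 11.1-fold in WT.

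Plcg2 had the most lost regions, 4 of 9. They include its start, chr8:117498049-117498975, enriched 7.49 and 3.66-fold in WT and named here after its values were seen. Adult IRF8 lay on that start region, and PU.1 was listed there in 1 WT library and both KO libraries (6.86 and 3.36). The lost Plcg2 region of highest rank was intronic, chr8:117518799-117519955, at 6.17 and 6.16 in WT. H3K4me1 at the start was listed in all 4 libraries, at 3.28 and 2.72 in WT and 3.69 and 2.86 in KO.

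Cd33 lost 3 of 8 regions, led by one over an exon, chr7:43527269-43529592 (5.24 and 4.14 in WT), and kept H3K27ac at its start and upstream region. Inpp5d lost 2 of 8, led by chr1:87634127-87636824 in an intron (3.39 and 7.85), Ptk2b 2 of 11, led by chr14:66226850-66228962 in an intron (4.63 and 5.56), and Abi3 1 of 3, chr11:95837261-95839195 in an intron (4.01 and 6.87).

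Picalm lost 3 of 9, Bin1 2 of 9, the higher-ranked at chr18:32441442-32442315 beyond its end (2.95 and 3.68), and Sorl1 1 of 4, chr9:42126532-42128622, 3.28 kb upstream (4.46 and 3.6). Abca1 lost 2 of 11. The higher-ranked, chr4:53011474-53013133 (10.5 and 4.91), lies at the start of its neighbour Nipsnap3b, and the other, chr4:53158560-53159814 (4.81 and 4.86), lies at the Abca1 start and is named after its values were seen. Abca7 lost 0 of 3.

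H3K4me1 consensus regions lay at all 10 genes in WT (79.6% of all gene windows) and in KO (82.1%). Of 54 WT regions 3 were lost (5.56%), beside 13.0% of all WT H3K4me1 regions, and 6 of 66 KO regions were KO-only (9.09%), beside 23.8%. The KO lists held 113370 and 189351 regions and the WT lists 104818 and 129859, ranges that overlap. Without KO replicate 1, 39 of 127 KO regions were KO-only (56% of all), and without KO replicate 2, 30 of 114 (41.7%). Without WT replicate 1, 9 of 86 WT regions were lost (44.1% of all) and 14 of 66 KO regions were KO-only (35.9%), and without WT replicate 2, 7 of 84 were lost (33%). Under the main rule, lost regions were 1 of 5 at Bin1, chr18:32363524-32366656 (2.36 and 1.9 in WT), and 2 of 6 at Picalm, the higher-ranked chr7:90228489-90230278 (3.59 and 2.63) inside Ccdc83. Of the 30 WT regions under adult IRF8 0 were lost (2.86% of all such regions), and of the other 24, 3 (16.2%).

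KO-only H3K4me1 regions were 2 of 8 at Plcg2, 2 of 9 at Ptk2b, 1 of 4 at Cd33 and 1 of 8 at Inpp5d, and 0 of the 6 overlapped adult IRF8. Of 28 KO regions under adult IRF8 0 were KO-only (0.746% of all such regions), and of the other 38, 6 (29.0%). At Plcg2 the higher-ranked was intronic, chr8:117558362-117560636 (2.89 and 2.69 in KO). At Cd33 it was chr7:43510483-43513041 (3.15 and 2.28), beyond the gene's end, where H3K27ac was listed in both WT and neither KO library. The Inpp5d region, chr1:87739838-87741242 (3 and 1.92), is nearest to Atg16l1, and the Ptk2b one, chr14:66149431-66151923 (2.38 and 2.29), lies in Chrna2.

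**Figure D4:**
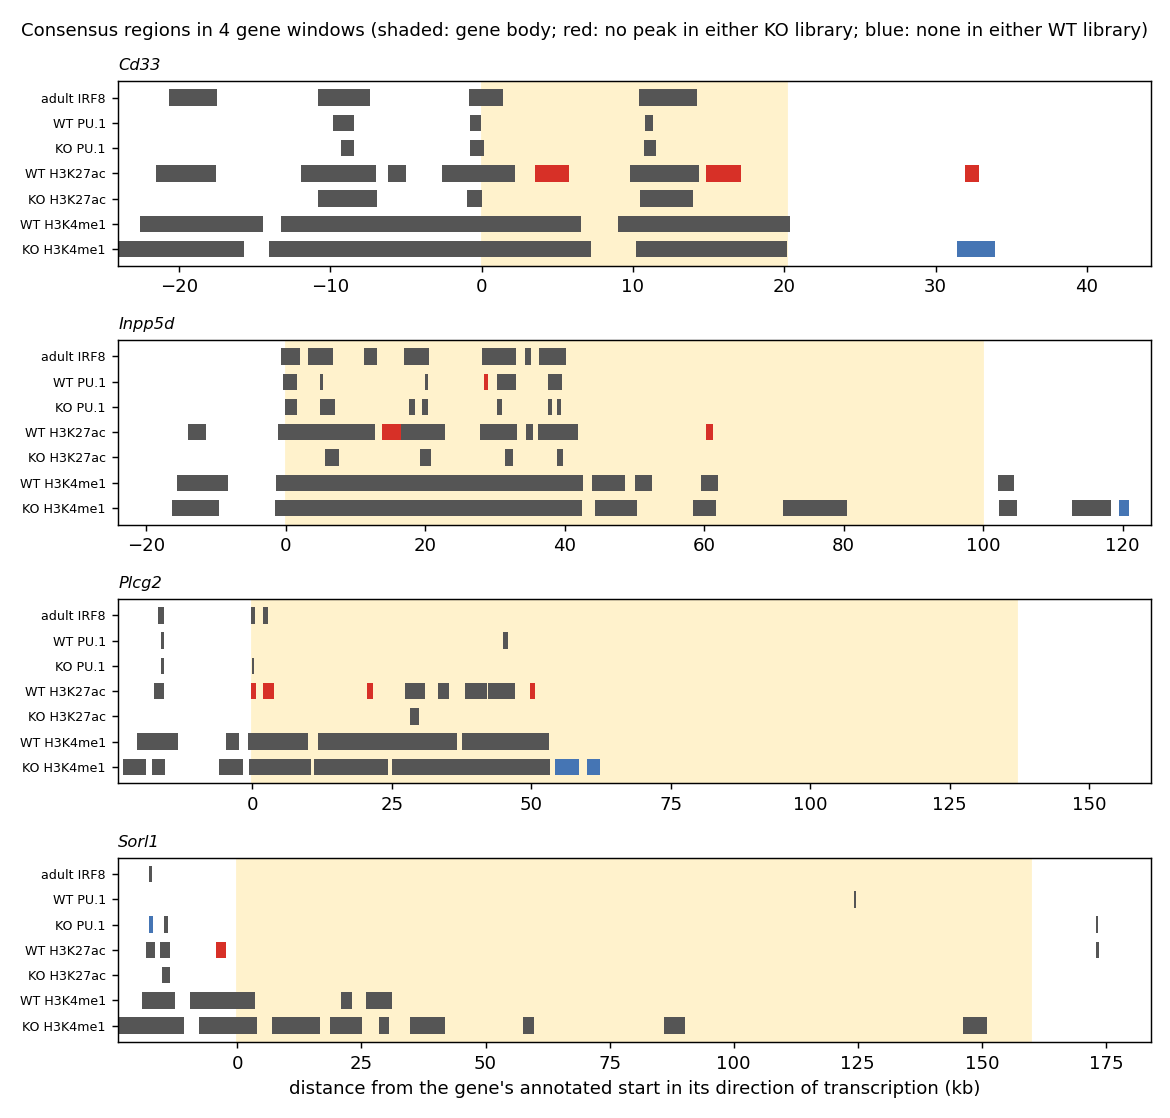
Consensus regions of adult IRF8 and of each mark and genotype in 4 gene windows, by distance from the gene's start in its direction of transcription (kb); the gene body is shaded, regions under 0.4 kb are drawn 0.4 kb wide, red marks WT regions listed in neither KO library and blue KO regions listed in neither WT library. A grey WT bar with no KO bar under it was overlapped by a peak of at least 1 KO library. The red PU.1 bar of Inpp5d lies 28.7 kb inside the gene, the blue PU.1 bar of Sorl1 17.4 kb upstream, and 4 red H3K27ac bars lie in Plcg2.

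At the starts of the 10 genes, an IRF8 consensus region within 1 kb of an annotated start was found at 1 gene at P9, Inpp5d (1.19% of all genes). There 1 of 4 libraries had a peak that near, and the merged region reached the start through it. At P14 one was found at 4, Bin1, Picalm, Cd33 and Inpp5d (10.4%). In adults there were 6, these and Plcg2 and Abi3 (24.6%), and in macrophages the same 6 (16.3%). WT H3K27ac lay at 8 (all but Sorl1 and Abca7; 36.9% of genes) and KO H3K27ac at 2 (Picalm and Cd33; 10.3%). Of the 6 starts with WT and no KO consensus, 5 (Bin1, Inpp5d, Ptk2b, Abi3 and Abca1) had a peak of 1 KO library within 1 kb of a start and the Plcg2 start had 0. At Abca1 no KO peak overlaps the WT region at the start itself, so that region counts as lost by the overlap rule. H3K4me1 lay at all 10 in both genotypes, beside 54.5% of genes in WT and 62.1% in KO. At Abca1 the WT region reached the start through 1 of 2 libraries. PU.1 lay at 4 starts in WT (Picalm, Cd33, Inpp5d and Abi3; 5.32% of genes) and at these and Plcg2 in KO (5.50%).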

How the data were processed

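The 10 genes, the other gene lists and the tests were chosen with earlier results of these data known. All 10 genes are named; at each, the text names the adult IRF8 region of highest mean percentile, every PU.1 region lost or KO-only, and the highest-ranked lost and KO-only histone region. Sample titles gave the groups, although the macrophage libraries carry a source label naming microglia. The labels count the P9 lists as 4 of 7 samples and the lists of KO H3K27ac as 2 of 3.

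The submitters' processing notes name Trim Galore, Bowtie2, deepTools, MACS2 and mm10. Per the file headers, the authors called peaks per library against an IgG control with duplicates kept, at a q-value of 0.01 (PU.1 replicate 2: 0.05). For H3K4me1 they called broad regions with a p-value limit of 0.01. Each deposited peak has a coverage signal, a fold enrichment ratio, and −log10 values of its p and, except for H3K4me1, its q-value. Percentiles rank the −log10 p-value within a list. Regions overlapped when they shared 1 bp. Regions at −log10 p of at least 10, other window extensions, equal list lengths and left-out libraries were tried as alternatives. Python 3.11.15, numpy 2.4.6, pandas 2.3.3 and pysam 0.24.0 were used. The trend test was tried on simulated data in which unchanged genes had the same mean in all libraries. Lists that grow with stage were not simulated.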

Additional observations from a re-analysis of the deposited data

Results flagged for a closer look

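Among the P9 libraries, Picalm had 1 distinct IRF8 region in replicate 3 and 0 in the others, and Ptk2b had 1 in replicate 4 and 0 in the others; in each gene 1 library stood apart from 3 equal ones. These were 2 of 12 P9 measures examined, 7 of which had any spread. The rule sets apart every gene with 1 region in 1 library and 0 in the others. Its nominal rate of 1 in 20 groups therefore does not carry over to such counts. Each of the 2 flags rests on 1 listed region.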

How the results depend on the processing

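The labels give P9, P14 and adult libraries shared replicate numbers, but no source ties equal numbers to an animal or day. Deviations of same-numbered libraries from their group means correlated at -0.07 to 0.31 over genes in 9 pairs, above 0.1 in 2, and in 2 of the 9 a library correlated best with its own number. With the replicate block 0 of the 10 genes were called for the trend (8 at an unadjusted p under 0.05), beside 0 of all genes. The trend called 5 genes at −log10 p of at least 10 (16.8% of all genes), 5 with no extension (18.3%), 0 with equal lists (0) and 1 per 10000 listed (0.45%), and 6 to 10 without 1 library. Adult IRF8 regions numbered 34 when all 3 libraries had to list them, and 36 to 50 without 1 library.

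Counts of lost and KO-only regions depend on the rule and on single libraries; each is given with its denominator and, after it, the share over all regions of the kind. Requiring an overlap of at least 50% of the region gave 4 of 24 lost (16.7%, beside 39% of all) and 5 of 27 KO-only PU.1 regions (18.5%, beside 32.5%), 57 of 75 lost H3K27ac regions (76%, beside 71.2%) and 19 of 66 KO-only H3K4me1 regions (28.8%, beside 45.8%). Absence from the other genotype's consensus gave 6 of 24 (25%, beside 48%) and 8 of 27 (29.6%, beside 39.1%) for PU.1, 50 of 75 lost (66.7%, beside 78.4%) and 1 of 32 KO-only (3.12%, beside 19.7%) for H3K27ac, and 15 of 66 KO-only (22.7%, beside 44.4%) for H3K4me1. The stricter −log10 p of 10 gave 12 of 33 lost (36.4%, beside 50.7%) and 1 of 9 KO-only H3K27ac regions (11.1%, beside 8.03%) and 3 of 13 KO-only PU.1 regions (23.1%, beside 19.6%), and left no H3K4me1 consensus region at the 10 genes in either genotype. Equal lists gave 6 of 36 lost H3K27ac regions (16.7%, beside 35.4%) and 3 of 24 KO-only PU.1 regions (12.5%, beside 17.6%). With no extension, KO-only PU.1 regions were 0 of 16 (16.5% of all), lost H3K4me1 regions 0 of 33 (13%) and KO-only ones 3 of 41 (7.32%, beside 23.8%). With 50 kb, KO-only H3K27ac regions were 1 of 36 (2.78%, beside 10.9%), lost H3K4me1 regions 5 of 77 (6.49%, beside 13%) and KO-only ones 12 of 94 (12.8%, beside 23.8%).

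Leaving out 1 library, which leaves a single list for that genotype, gave 3 to 18 lost PU.1 regions (12.5 to 36%, beside 35.6 to 58.6% of all) and 4 to 10 KO-only (14.8 to 26.3%, beside 24.3 to 58.2%). For H3K27ac it gave 25 to 74 lost (33.3 to 56%, beside 37.3 to 72.9%) and 0 to 45 KO-only (0 to 32.8%, beside 14.1 to 55.9%), and for H3K4me1 3 to 9 lost (5.56 to 10.5%, beside 19 to 44.1%) and 8 to 39 KO-only (12.1 to 30.7%, beside 32.6 to 56%). A replicate block for the genotypes, chosen after seeing the data, set libraries of equal number side by side, each number alone and with no test; PU.1 libraries of equal number share a control and a threshold. In numbers 1 and 2 it gave 24 of 50 and 8 of 32 lost PU.1 regions (66.4% and 57.5% of all) and 12 of 38 and 14 of 39 KO-only (53.6% and 67.7%). For H3K27ac it gave 63 of 129 and 107 of 143 lost (57.4% and 85.4%) and 53 of 137 and 19 of 63 KO-only (61.1% and 62.4%). For H3K4me1 it gave 13 of 84 and 16 of 86 lost (49.1% and 51.2%) and 35 of 114 and 54 of 127 KO-only (51.8% and 66.2%). PU.1 lists at a q-value of 0.01 throughout, also chosen after seeing the data, gave 2 lost of 23 (8.7%, beside 25.2% of all) and 2 KO-only of 24 (8.33%, beside 16.7%). Presence is a threshold call in each list, and how far absent regions lie under it was not measured.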
